A study of Mus musculus with 12 samples.

Results

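Contacts between promoters and distal bins that were counted more often in adult than in fetal haematopoietic stem cells (HSCs) of the mouse are described here. Promoter Capture-C ligates the ends of cross-linked, DpnII-cut chromatin and enriches the products of chosen promoters with probes, so a count records ligation events between a promoter and a distal bin of 2 kb. The contacts were chosen by their counts. A contact is included when it lies within a chromosome, spans over 60 kb, has at least 30 counts in both populations together, and has a log2((fetal + 1)/(adult + 1)) of -0.8 or less. They are called strong adult excess contacts below. Of 89545 contacts in the deposited table, 32136 met the conditions on distance and count and are called eligible, and 1834 of these met the limit on the ratio.

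The fetal HSCs came from E14.5 fetal liver and the adult HSCs from bone marrow of mice aged 6 to 8 weeks, both of the strain B6129SF1. Both were sorted as Lin-Sca1+cKit+CD135- cells. Of the 12 samples, 4 Capture-C libraries were of each population, 2 per batch, and the labels name the batches first and second; wild-type and TCF3KO cells of the HPC7 line (2 samples each) were not analysed here. The deposited counts are pooled per population and batch, so the spread between libraries is unknown and no difference could be tested. The batches captured nearly separate sets of promoters and are given apart.

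Promoters work with distal enhancers that can lie far away on the chromosome, and looping brings the pair close enough to be ligated. Active enhancers carry characteristic histone marks and open chromatin, and their set differs between cell states. Fetal liver HSCs expand rapidly, whereas most adult bone marrow HSCs are quiescent, and the programmes reported to separate them include growth factor and RNA-binding genes in the fetus and antigen presentation and interferon genes in the adult.

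The sequences upstream of 3 promoters on which the results turn are shown first. Mgat5, which encodes a Golgi enzyme that branches N-glycans, held the most strong adult excess contacts in the second batch. Fadd, the adaptor of death receptors, held the most in the first batch. B2m, the light chain of MHC class I, held the most of the antigen presentation genes. The sequences are the 250 bases before the gene's start from RefSeq (GRCm38.p6, each on its own strand): chr1:127204736-127204985 (+) for Mgat5, chr7:144582442-144582691 (-) for Fadd and chr2:122147437-122147686 (+) for B2m. Capitals mark DpnII sites (GATC), where the chromatin was cut, and, in B2m, an interferon-stimulated response element (ISRE, searched on both strands as GAAA and GAAA with any 2 bases between them).
Mgat5: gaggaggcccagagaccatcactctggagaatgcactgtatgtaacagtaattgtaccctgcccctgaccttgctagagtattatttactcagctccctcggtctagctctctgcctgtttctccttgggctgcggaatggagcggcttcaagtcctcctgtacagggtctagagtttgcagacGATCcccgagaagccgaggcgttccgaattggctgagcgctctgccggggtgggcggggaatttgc
Fadd: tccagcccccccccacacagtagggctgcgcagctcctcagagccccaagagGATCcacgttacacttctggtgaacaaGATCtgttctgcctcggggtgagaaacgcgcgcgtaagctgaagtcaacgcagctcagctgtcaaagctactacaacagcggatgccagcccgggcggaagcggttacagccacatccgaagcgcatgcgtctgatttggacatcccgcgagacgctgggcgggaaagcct
B2m: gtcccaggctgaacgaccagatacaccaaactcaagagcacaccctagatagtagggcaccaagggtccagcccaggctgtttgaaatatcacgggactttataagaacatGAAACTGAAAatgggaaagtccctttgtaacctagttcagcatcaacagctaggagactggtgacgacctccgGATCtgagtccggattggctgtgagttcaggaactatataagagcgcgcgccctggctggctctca
The ISRE of B2m begins at base 112 of its window. In H2-T22, another MHC class I gene with strong adult excess contacts, an ISRE lies on the opposite strand at base 60. The window of Tap1, an antigen presentation gene that also holds such a contact, has no ISRE. ISRE letters were not more common among these promoters at large. They occurred in 2.43% (24 of 987) of the windows of genes with a strong adult excess contact, in 2.89% of windows of genes with eligible contacts and none of this kind, and in 2.98% of all 32851 windows. The GATA letters AGATAA, searched on both strands like the other motifs, occurred in 6.69%, 6.41% and 9.99% of these window sets. The ETS letters CCGGAAGT occurred in 5.47%, 5.36% and 2.88%, and the GC box GGGCGG in 53.9%, 56.2% and 32.7%. DpnII sites were found in 41.5%, 39.3% and 41.9%. Genes with and without strong adult excess contacts therefore differed little in these letters, whereas both sets of captured promoters differed from all windows in GC box, ETS and GATA letters. RefSeq windows matched 759 of 1032 genes with such a contact.

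The first batch held 309 strong adult excess contacts among 5707 eligible ones (5.41%), and the second batch 1525 among 26429 (5.77%). Contacts with the opposite excess, a log2 ratio of 0.8 or more, numbered 641 (11.2%) and 5312 (20.1%). Adult excess thus made up 32.5% of all strong excess contacts in the first batch and 22.3% in the second. This split depends on the scaling of the populations. Fetal counts summed over eligible contacts were 259660 (first batch) and 1099484 (second batch), and adult counts 211747 and 965706. With both populations scaled to equal totals, adult excess made up 73.2% (698 of both kinds against 255) and 41.9% (2464 against 3413). With ratios centred on their median, it made up 46.2% (415 against 483) and 55.1% (3216 against 2618). Of the first batch's contacts, 28 eligible contacts of at least 1000 counts held 131272 of the fetal and 94222 of the adult counts. All further values use the counts as deposited, as the rule does.

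Most of the strong adult excess contacts were read at low depth. Their medians were 11 fetal and 25 adult counts (first batch) and 12 and 27 (second batch), and 68.9% and 53.5% of them had no more than 40 counts in total. A log2 ratio of -1 or less was reached by 152 and 870, and -2 or less by 5 and 32. The rule itself places the adult share of nearly every one above the batch's own share. The exact 95% interval (Clopper-Pearson, counting error only) of the adult share lay above the batch-wide adult share of 44.9% for all 309 in the first batch, and above 46.8% for 1458 of 1525 in the second. The first batch's contacts just inside the limit had 11 fetal and 20 adult counts (log2 -0.81, 5 promoters including Akt2_1 and Cbfa2t3_1), and 30 and 53 in the second (Tmem158). Just outside lay Bcl2a1b with 49 and 86 counts (log2 -0.799) and, in the second batch, Taco1 and Upp1 with 26 and 46 each (log2 -0.80). A contact counts as called in a population when the authors' score there is above 0. Of the first batch, 156 of the strong adult excess contacts were called in adult cells alone and 153 in both populations (49.5%, against 83.6% of eligible contacts between the limits). Of the second, 1388 were called in adult cells alone and 137 in both (8.98%, against 51.9%). Score and count describe the same reads, so these shares are a description of the choice.

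**Figure D1:**
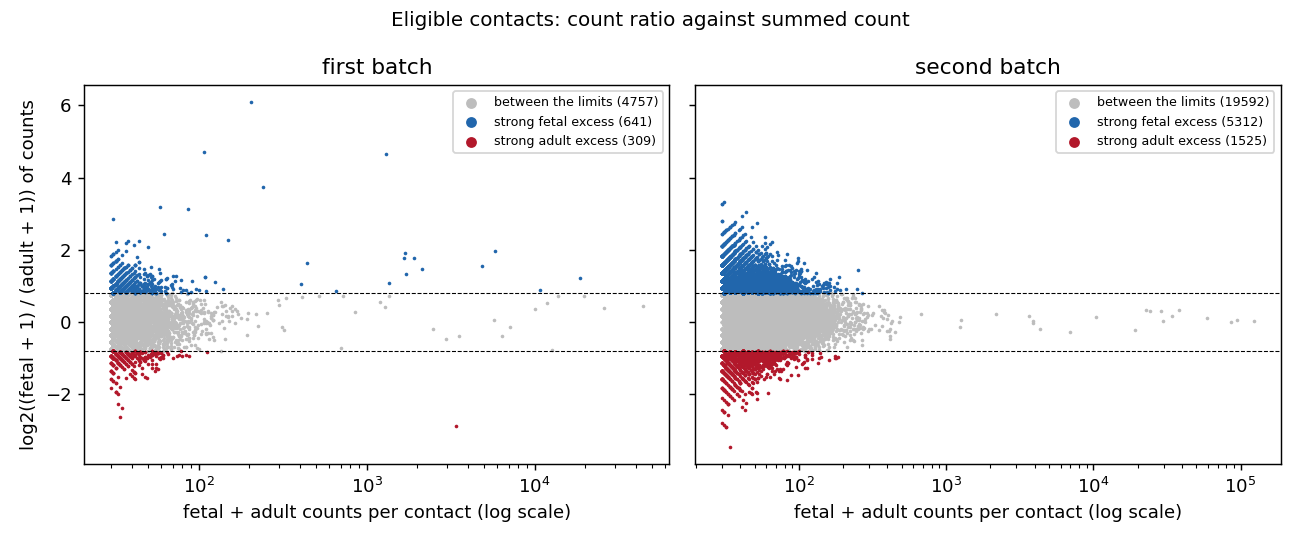
Log2((fetal + 1)/(adult + 1)) of the counts of each eligible contact against its summed count on a log scale, for the first (left) and second (right) batch. Points in red at or under -0.8 are the 309 and 1525 strong adult excess contacts, blue points are strong fetal excess contacts and grey points lie between the limits (dashed lines). Nearly all red points sit at low counts, and a single one in the first batch (Sp140_1) lies above 1000.

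Many promoters held these contacts, each of them few. They fell on 234 of 970 promoters with eligible contacts in the first batch (24.1%), and 181 of the 234 held 1, 41 held 2 and 12 held 3 or more. Among the second batch's promoters, 808 of 1650 had them (49.0%), of which 440 held 1, 193 held 2 and 175 held 3 or more. The 10 promoters with the most held 40 contacts in the first batch (12.9%, interval 9.41 to 17.2%) and 81 in the second (5.31%, interval 4.24 to 6.56%), and it took 80 and 207 promoters to reach 50%. Promoters with a strong adult excess contact had a median of 7 eligible contacts (first batch) and 18 (second batch), those without had 2 and 4, so the chance to hold one moved with the number of contacts read. A strong fetal excess contact was also found at 100 of the 234 promoters and at 684 of the 808. Over all promoters with eligible contacts, 364 of 970 and 1223 of 1650 held one.

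**Figure D2:**
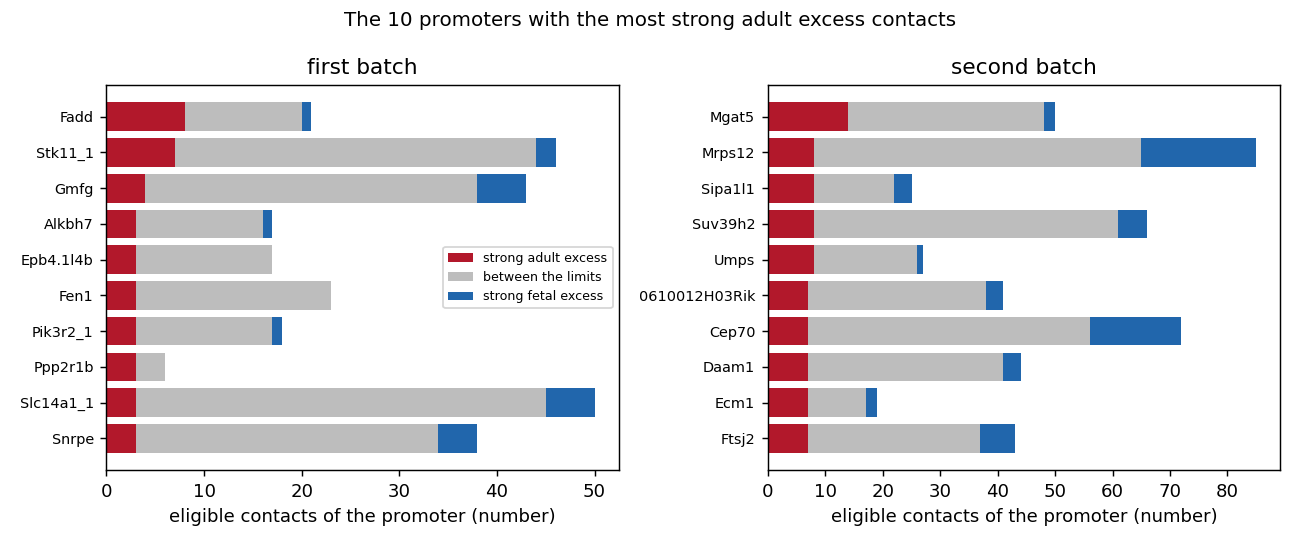
Eligible contacts of the 10 promoters with the most strong adult excess contacts in the first (left) and second (right) batch, as stacked bars from 0 and with ties for the last places taken in alphabetical order, with strong adult excess in red, contacts between the limits in grey and strong fetal excess in blue. Fadd (8 of 21) and Mgat5 (14 of 50) lead, and Mrps12 held more contacts of strong fetal excess (20) than of strong adult excess (8).

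Fadd, captured at chr7:151768326-151768515 (mm9), held 8 strong adult excess contacts among 21 eligible ones (38.1%) and 1 with strong fetal excess. All 8 lay at higher coordinates, upstream of this minus-strand promoter, as did 19 of its 21 eligible contacts. They formed a near group at 198.6 to 208.6 kb and a far group at 314.6 to 330.6 kb. In the near group the 5 bins starting at 151966001, 151968001, 151972001, 151974001 and 151976001 had 19, 10, 15, 14 and 11 fetal counts against 40, 26, 27, 26 and 21 adult counts. In the far group the bins starting at 152082001, 152092001 and 152098001 had 11, 20 and 5 fetal against 23, 37 and 28 adult counts. The last bin had the lowest ratio (log2 -2.27) and was the only one of the 8 not called in fetal cells. The near bin starting at 151974001 was open in adult cells alone, but this last bin was open in fetal cells alone. The last bin lay 24.5 kb from the captured promoter of Ccnd1, the cyclin D1 gene. An active enhancer mark was present in 3 of the near bins in adult cells and in none of the 8 in fetal cells, and 6 of the 8 were open in each population. FPKM of Fadd was 3.20 in fetal and 3.22 in adult cells.

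Mgat5, captured at chr1:129101499-129101640 (mm9), held 14 among 50 eligible contacts (28%) and 2 with strong fetal excess. All 14 lay downstream of this plus-strand promoter at 73.4 to 253 kb, but so did all 50 of its eligible contacts. Their counts ran from 9 to 28 in fetal and from 22 to 55 in adult cells, and their log2 ratios from -0.82 to -1.32. Pairs of fetal and adult counts were 27 and 50, 19 and 44, and 12 and 25 in 3 adjacent bins from 129242001 to 129248001, and 12 and 22, 12 and 28, and 9 and 24 in a further 3 from 129282001. Every bin of the first of these runs was open in both populations. Over all 14 bins, 7 were open in adult and 5 in fetal cells, and 2 and 1 carried the active enhancer mark. FPKM of Mgat5 was 1.91 in fetal and 5.35 in adult cells, higher where the counts were higher.

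**Figure D3:**
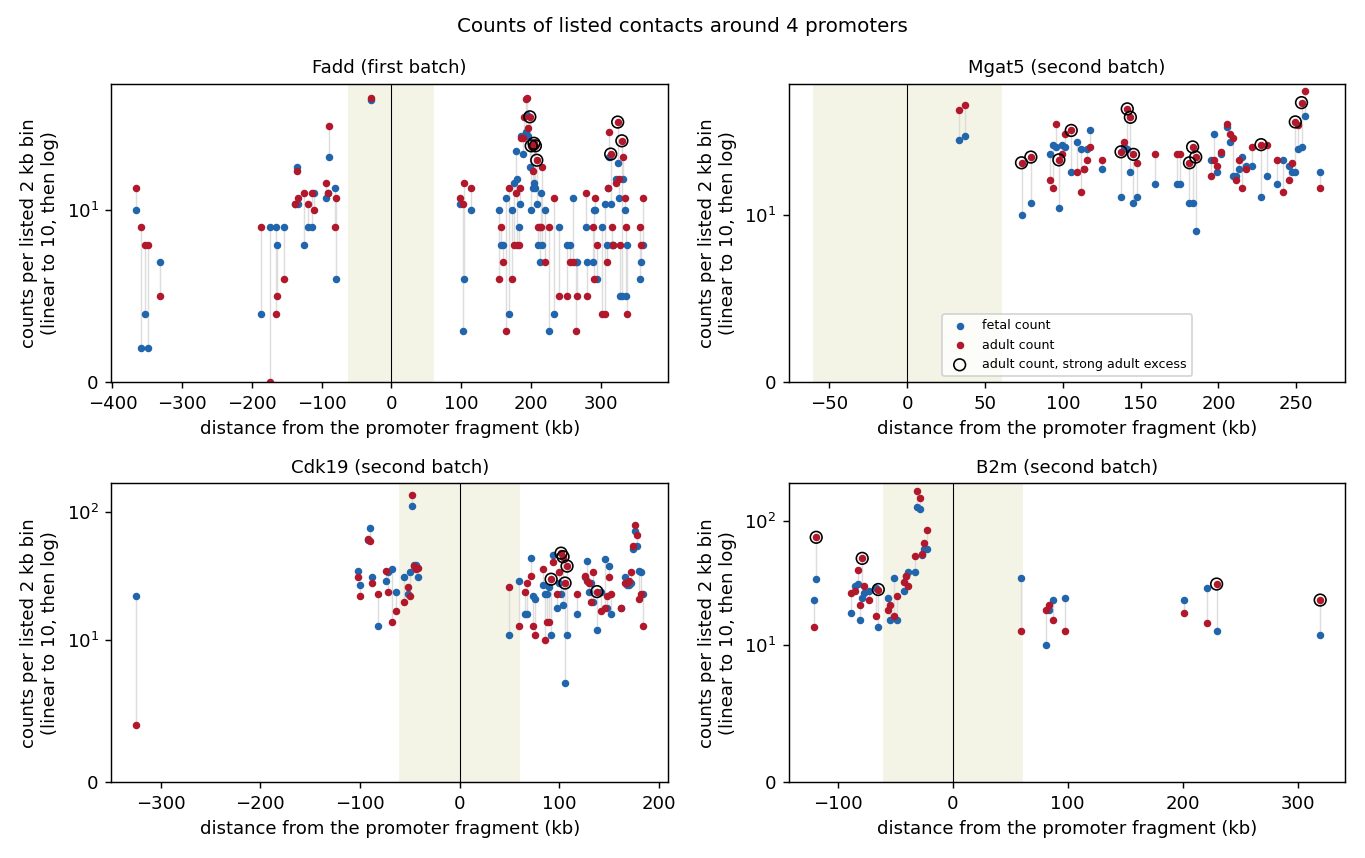
Fetal (blue) and adult (red) counts of every listed 2 kb bin within 450 kb of the promoters of Fadd, Mgat5, Cdk19 and B2m against the distance from the promoter fragment in kb, with the count axis linear up to 10 and logarithmic above. Black circles mark strong adult excess contacts, grey lines join the counts of a bin, and the shaded 60 kb on either side were outside the rule. The circles of Fadd fall in groups at 198.6 to 208.6 and 314.6 to 330.6 kb, and those of Mgat5 are spread from 73.4 to 253 kb among bins with little difference.

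The other leading promoters of the first batch each held 3 to 7. Stk11_1, a promoter of the gene of the energy-sensing kinase Lkb1, held 7 among 46, all on its lower-coordinate side at 66 to 168 kb, where 44 of the 46 lay. Fetal counts there ran from 10 to 21 and adult counts from 20 to 40, while FPKM was 25.3 and 24.5. Gmfg, an actin regulator of blood cells, held 4 among 43 and its FPKM was 95.03 and 82.26. The 9 promoters with 3 each were Alkbh7, Epb4.1l4b, Fen1, Pik3r2_1, Ppp2r1b, Slc14a1_1, Snrpe, Tnfrsf18 and Zbtb8os, of which the first 7 in alphabetical order complete the leading 10. Ppp2r1b, a scaffold subunit of protein phosphatase 2A, had only 6 eligible contacts, and 3 of them were of this kind. Expression did not go one way among them. FPKM of Epb4.1l4b, a FERM domain protein, was 1.75 in fetal and 14.0 in adult cells and that of Slc14a1_1, a urea transporter, 9.69 and 28.7. FPKM of Fen1, a nuclease of DNA replication, was 41.9 and 18.4, and that of Snrpe, a core splicing protein, 302 and 201.

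Sipa1l1, which encodes a regulator of Rap GTPases, held 8 among 25 (32%) in the second batch, all on its higher-coordinate side at 69.9 to 148 kb, where 24 of its 25 eligible contacts lay. Its bin at 147.9 kb had 3 fetal and 28 adult counts, and its bin at 113.9 kb, which carried the active enhancer mark in adult cells alone, had 4 and 26. Umps, an enzyme of pyrimidine synthesis, held 8 among 27 (29.6%), and Ecm1, an extracellular matrix protein, 7 among 19 (36.8%). Suv39h2, a histone H3 lysine methyltransferase, held 8 among 66, and Mrps12, a protein of the mitochondrial ribosome, 8 among 85. The promoters with 7 were, besides Ecm1, 0610012H03Rik, Cep70, Daam1, Ftsj2 and Mtmr9, the last of which the alphabetical order leaves out of the leading 10. Of the 7 bins of Daam1, an actin-nucleating formin, 3 were open in adult cells and none in fetal cells, although FPKM was 2.002 in fetal and 0.923 in adult cells. Of the 7 bins of Cep70, a centrosome protein, 3 had the active enhancer mark in adult cells and none in fetal cells, and FPKM was 1.89 and 3.98. Other leading promoters went the other way. Bins open in adult and in fetal cells numbered 2 and 5 at Stk11_1, 5 and 7 at Mrps12 and 4 and 5 at Ecm1, and bins with the active enhancer mark 2 and 3, 1 and 2, and 1 and 2. FPKM was higher in fetal cells for Umps (18.7 and 10.6), Ecm1 (2.74 and 1.45), Suv39h2 (1.94 and 1.26), Mrps12 (20.5 and 12.2) and Ftsj2 (3.82 and 2.04). It was higher in adult cells for Sipa1l1 (2.35 and 4.59) and 0610012H03Rik (0.202 and 1.13).

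Of the single contacts, one stood far from the rest in count. Sp140_1, a promoter of the nuclear body protein Sp140, had 407 fetal and 2991 adult counts (log2 -2.87) in the bin chr1:87398001-87400001 (mm9), 130 kb away, whereas the contact with the next most counts in this batch, of Gps1_1, had 40 and 72. The bin was open in adult cells alone, and FPKM was 3.33 in fetal and 8.12 in adult cells. Sp140 belongs to a family of similar genes clustered on this chromosome, and the treatment of reads that match several of them is not given in the sources used here. The next lowest ratios of the first batch rested on few fetal counts. They were found at Itsn1, an endocytic scaffold protein (4 and 30 counts, and 7 and 27 in a second bin), at the splicing factor gene Srsf7 (5 and 30), at Plxnc1, a semaphorin receptor (6 and 27), and at Adam12_1, Gmfg, Slco2b1 (6 and 26 each) and Alox5ap (6 and 24). FPKM was 6.51 in fetal and 23.1 in adult cells for Itsn1 and 7.29 and 19.4 for Plxnc1. The lowest ratio of the second batch was that of Oxr1_2 (2 and 32, log2 -3.46), whose bin holds another captured promoter of the oxidation resistance gene Oxr1. Kctd1 and Wbp1 followed with 3 and 29 counts each, and Npdc1 with 3 and 27. FPKM of Npdc1 was 0.0781 in fetal and 6.42 in adult cells. Slc24a5, Gss, Pcmtd1, Tmem30a and Efnb1 completed the 10 lowest with 4 to 6 fetal and 27 to 37 adult counts, and the Pcmtd1 contact spanned 2456 kb to a bin that holds the captured promoter of Rrs1.

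The contacts with the most counts were less extreme in ratio. Parp9, an ADP-ribosyltransferase of the interferon response, had 62 fetal and 123 adult counts in a bin beside the captured promoter of Parp14. Tubb5, a tubulin gene, had 59 and 119, Klhl6 59 and 118, AI987944 60 and 115, and Deptor, an inhibitor of mTOR, 52 and 108. Ccnd1 followed Gps1_1 in the first batch with 30 and 58 counts, the cold-inducible Cirbp_1 with 29 and 55, and Pcnp with 27 and 53. Log2 ratios of these 9 lay between -0.83 and -1.04. FPKM did not follow the counts in all of them, with 374 in fetal and 198 in adult cells for Tubb5 and 10.9 and 6.09 for Ccnd1.

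Most strong adult excess contacts did not adjoin another, but only listed bins could be seen. A listed bin of the same promoter adjoined 244 of 309 (79.0%) in the first batch and 876 of 1525 (57.4%) in the second. The others could form no run. For strong fetal excess contacts these shares were 80.5% and 53.3%. Of the first batch, 7 of 309 contacts (2.27%, interval 0.916 to 4.61%) adjoined another of the same promoter, in 3 runs, and in the second batch 119 of 1525 (7.80%, interval 6.51 to 9.27%) did, in 56 runs. Of strong fetal excess contacts, 8.27% (interval 6.26 to 10.7%) and 15.2% (interval 14.2 to 16.2%) lay in runs, but these are also denser among the eligible contacts. With 1 missing bin allowed the shares were 5.50% and 12.3%. The listed bins that adjoin a strong adult excess bin without being one had median ratios near 0. The median lay slightly on the adult side in the first batch and slightly on the fetal side in the second. Of 384 such bins in the first batch, 51.3% had more adult than fetal counts after adding 1 to each, with a median log2 of -0.06, and in the second 43.3% of 1061, with a median of 0.09. The medians over all eligible contacts were 0.09 and 0.27.

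The longest run was that of Cdk19, a kinase of the Mediator complex. Its 4 adjacent bins of chr10:40170001-40178001 (mm9), 102 to 108 kb from the promoter, had 23, 19, 7 and 11 fetal against 48, 45, 28 and 38 adult counts. Runs of 3 bins were found at Serpini1 (29, 15 and 22 against 57, 45 and 43), Suv39h2 (25, 13 and 20 against 47, 24 and 38), Fam184a (18, 9 and 11 against 34, 23 and 20) and, as given above, at 2 places of Mgat5. The runs of the first batch were those of Fadd, with 3 and 2 bins, and one of 2 bins of Zbtb8os, with 9 and 10 fetal against 23 and 24 adult counts. In every bin of these runs the adult count exceeded the fetal one, as the rule requires.

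Strong adult excess contacts lay somewhat farther away than eligible contacts between the limits. In both batches their interval overlapped that of strong fetal excess contacts. Their median distance was 120 kb (interval 108 to 130 kb) in the first batch against 105 kb between the limits, and 122 kb (interval 118 to 127 kb) in the second against 109 kb. Strong fetal excess contacts had medians of 104 kb (interval 99.4 to 110 kb) and 118 kb (interval 116 to 121 kb). At 50 counts or more the median of strong adult excess contacts was 113 and 108 kb. The part of depth in the difference in distance was not tested. Distances over 500 kb were found for 12 (3.88%) and 37 (2.43%) contacts. The shares were 2.14% and 1.30% between the limits and 2.03% and 1.26% of strong fetal excess contacts. Distances over 1 Mb were found for 8 and 9, against 68 of 4757 and 51 of 19592 between the limits. The farthest were those of Pisd-ps2 (36902 kb, 19 and 37 counts) and of Myc_1 (1672 kb, 12 and 26 counts) in the first batch, and of Zfp141 (2988 kb, 6 and 28 counts) in the second. The Myc_1 bin carried active enhancer marks and was open in both populations. Where the RefSeq strand was known, 53.0% (interval 46.4 to 59.5%) and 54.8% (interval 51.9 to 57.8%) of strong adult excess contacts lay downstream of the promoter. Between the limits the shares were 45.5% and 52.0%.

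Marks of the distal bins come from other assays than the counts and were not used by the rule. In the second batch the active enhancer mark was present in 14.5% of strong adult excess bins in adult cells and in 12.5% in fetal cells. It was found in adult cells alone in 69 bins and in fetal cells alone in 38, so the adult share of bins that differ was 64.5% (interval 54.7 to 73.5%). Between the limits that share was 45.6% (interval 43.1 to 48.2%), and at strong fetal excess bins 34.0% (interval 29.1 to 39.2%). The order of the groups thus followed the counts in this batch, although few of the 1525 bins differed in the mark. With 1 contact per promoter the adult minus fetal difference of the second batch was 1.86 percentage points (interval -0.026 to 3.52), against 2.03 over all its contacts, and the interval also reached below 0 at a limit of -1 (-0.36 to 3.43), at 50 counts (-1.39 to 4.40) and over 150 kb (-0.93 to 3.49). For the first batch the mark was found in 18.1% of bins in adult and 18.4% in fetal cells, with 16 bins marked in adult cells alone and 17 in fetal cells alone (48.5%, interval 30.8 to 66.5%). The shares there were 39.7% (interval 35.1 to 44.5%) between the limits and 39.1% (18 bins against 28, interval 25.1 to 54.6%) at strong fetal excess bins, and these intervals overlap.

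Open chromatin was found in adult cells alone in 16 and in fetal cells alone in 9 bins of the first batch (64.0%, interval 42.5 to 82.0%), and in 84 and 72 of the second (53.8%, interval 45.7 to 61.9%). The shares between the limits were 35.9% (interval 31.8 to 40.2%) and 44.3% (interval 42.2 to 46.4%). With 1 contact per promoter the adult minus fetal difference of the second batch was -0.495 percentage points, against 0.787 points over all its contacts. Several contacts of 1 promoter share that promoter, and neighbouring bins can share a mark, so these intervals are too narrow.

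Bins with no mark that were not open in adult cells made up 25.6% of strong adult excess bins in the first batch and 40.4% in the second, against 30.7% and 39.9% between the limits and 36.3% and 52.2% of strong fetal excess bins. A captured promoter lay in 45 (14.6%) and 141 (9.25%) of the bins, against 11.2% and 7.72% between the limits and 14.4% and 6.44% of strong fetal excess bins. Among first-batch contacts, 16 strong adult excess contacts had a bin with an active enhancer mark in adult cells alone. Besides the 3 of Fadd, these included contacts of the HSC transcription factor genes Meis1_2 (13 fetal and 27 adult counts) and Gata2 (11 and 21), and of Hoxa7 (10 and 22) and Hoxa3_1 (16 and 32). Hoxa7 and Hoxa3_1 are named after their values were seen.

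**Figure D4:**
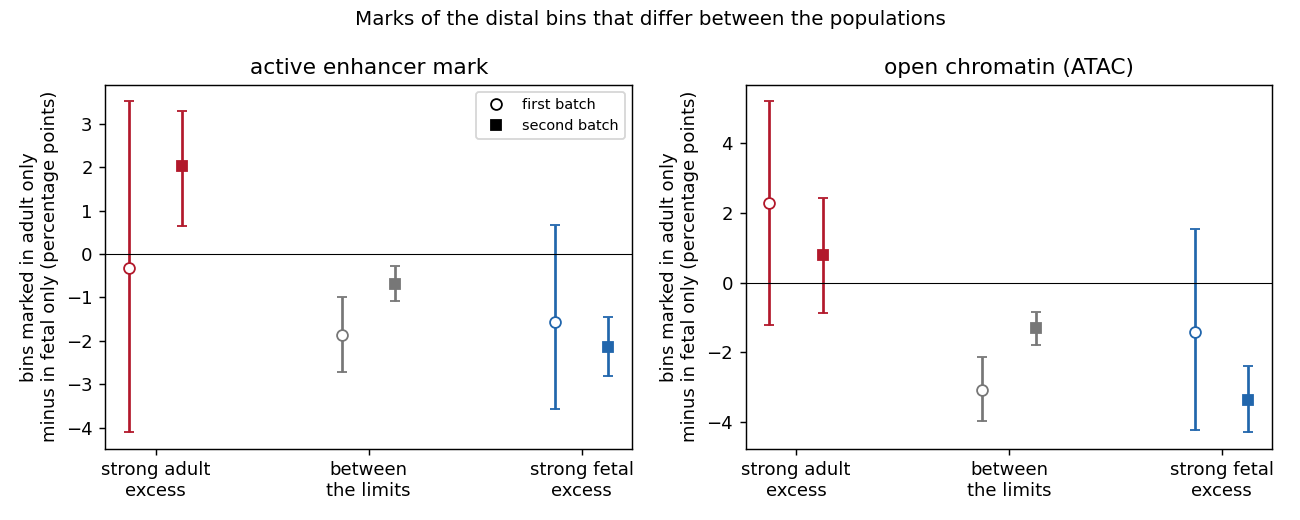
Bins marked in adult cells alone minus bins marked in fetal cells alone, in percentage points of all bins of the group, for the active enhancer mark (left) and open chromatin (right), with open circles for the first and filled squares for the second batch. Bars are 95% intervals, exact given the number of bins that differ. For the enhancer mark the strong adult excess bins of the second batch lie above 0 (2.03 points, interval 0.652 to 3.30) and those of the first batch do not (-0.32, interval -4.10 to 3.52).

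FPKM values, deposited per promoter and made by another assay, were likewise not used by the rule. Holding a strong adult excess contact went with little difference in expression. FPKM was higher in adult cells at 128 of 234 such promoters in the first batch (54.7%, interval 48.1 to 61.2%; background 50.2%) and at 429 of 808 in the second (53.1%, interval 49.6 to 56.6%; background 53.2%), where the background is the share of all promoters with eligible contacts. A log2((fetal FPKM + 1)/(adult FPKM + 1)) of -1 or less was found at 41 promoters (17.5%, background 12.4%) and at 138 (17.1%, background 16.2%). For the first batch the authors' deposited table marks 42.3% of these promoters as differentially expressed, against 36.9% of all; in the second it marks every one. In sorted cells, a change in the mix of cells and a change per cell cannot be told apart.

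The balance of both kinds of excess at a promoter separated expression more clearly in the second batch. This comparison was not among the planned results. It was not repeated under other scalings, on which the split of both kinds depends. In the second batch FPKM was higher in adult cells at 66.5% (interval 59.8 to 72.8%) of the 215 promoters with more strong adult than strong fetal excess contacts, against 46.3% (interval 43.2 to 49.4%) of the 1020 with more of the fetal kind. The intervals do not overlap. The shares in the first batch were 55.6% (interval 47.3 to 63.7%) of 151 and 45.6% (interval 39.9 to 51.3%) of 305, with intervals that do. Among promoters with 3 or more strong adult excess contacts, FPKM was higher in adult cells at 102 of 175 in the second batch (58.3%) but at only 4 of 12 in the first. Promoters of 1 gene can share its expression, so the promoters are not all independent.

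**Figure D5:**
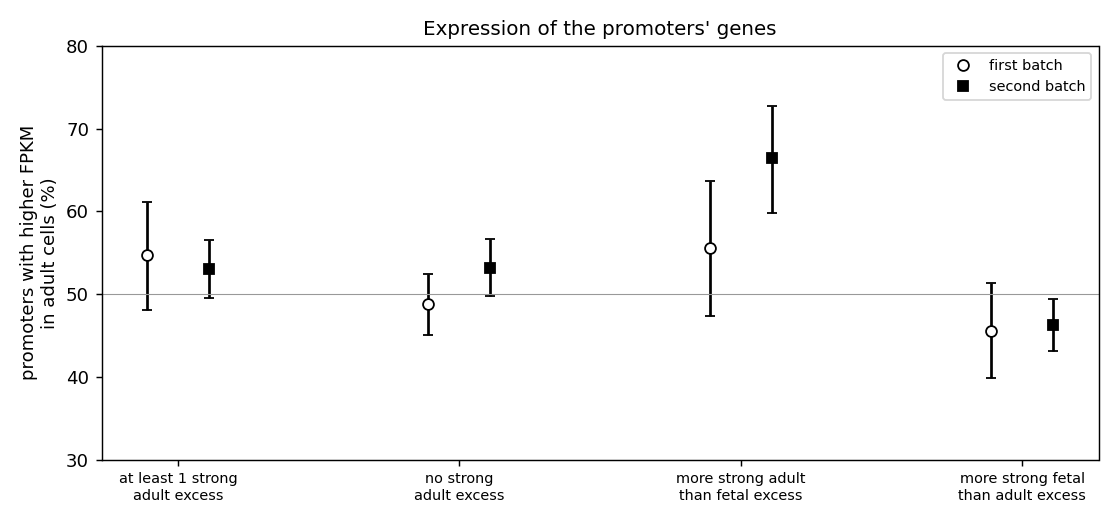
Percentage of promoters with higher FPKM in adult than in fetal cells, by the kind of strong excess contact they hold, with exact 95% intervals, for the first (open circles) and second (filled squares) batch. The axis runs from 30 to 80% and the grey line marks 50%. Promoters with more strong adult than strong fetal excess contacts lie highest, at 55.6% and 66.5%.

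The identity of the cells was read from FPKM of the captured marker genes. The HSC markers Kit, Procr, Mecom, Hlf, Gata2 and Cd34 had 8.94 to 57.3 FPKM in both populations. Markers of other lineages moved with the populations. All 5 erythroid markers were at 1 FPKM or more in fetal cells and 2 in adult cells. Of 4 myeloid markers, 4 and 2 reached it, and of 4 macrophage markers, 4 and 1. The megakaryocyte genes Pf4 (14.2 and 113 FPKM) and Itga2b (6.43 and 45.1) were higher in adult cells. The erythroid markers and Elane, Itgam and Gp1bb were captured in the second batch. Every promoter with eligible contacts in that batch is marked as differentially expressed. A difference at these markers, though not its direction, may thus only reflect which promoters were captured. No T cell, B cell or hepatocyte marker was among the listed promoters. Flt3, which encodes the CD135 that the sort selected against, had 6.20 and 3.81 FPKM. The part of these cells in the count excess was not tested.

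Among the gene lists compiled for this tissue, the genes of MHC class I antigen presentation held the most by number, though not by share of eligible contacts. At 10 promoters with eligible contacts they had 11 strong adult excess contacts among 76 (14.5%) and 6 of strong fetal excess. The share over all eligible contacts was 5.41% in the first batch and 5.77% in the second. B2m (chr2:121973359-121973904, mm9) held 5 among 18, at bins 119, 78.6, 64.6, 229 and 319 kb away, with 34, 24, 14, 13 and 12 fetal against 74, 50, 28, 31 and 23 adult counts. FPKM of B2m was 81.1 in fetal and 418 in adult cells. H2-T22 held 2 among 9 (16 and 33 counts, and 12 and 23), the peptide transporter genes Tap1 1 among 4 (10 and 26) and Tap2_1 2 among 27 (10 and 23, and 13 and 26). H2-Q4 held 1 among 2 (16 and 41), 1380 kb away in the bin of the captured H2-K1 promoter. FPKM was higher in adult cells at all 10 promoters, for example 3.71 in fetal and 68.1 in adult cells at H2-Q4. H2-K1, H2-M3, H2-Q6, H2-T23 and Tapbp held none. The class I genes are similar copies of each other, and the treatment of reads that match several of them is not given in the sources used here.

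Regulators tied to adult HSCs held 4 among 25 eligible contacts (16%): 2 of Cdkn1c, a cell-cycle inhibitor (20 and 37 counts, and 11 and 25), 1 of the early growth response gene Egr1 (19 and 34) and 1 of Hlf_2, an HSC transcription factor (10 and 22). FPKM of Egr1 was 0.702 in fetal and 25.3 in adult cells, whereas that of Cdkn1c was 11.2 and 6.88. Regulators tied to fetal HSCs (Arid3a, Igf2_2, Igf2bp1, Igf2bp2, Igf2bp3 and Sox17 had eligible contacts) held 0 among 25, which allows a share of up to 12% (3 counts of the total), and 8 of strong fetal excess. FPKM was higher in adult cells at none of the 6. These lists have too few contacts to be set apart from the background of 5.41% and 5.77%.

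Regulators of both states held 10 among 98 (10.2%), at 8 promoters, and 11 of strong fetal excess. The background over all eligible contacts was 5.41% in the first batch and 5.77% in the second. Gata2 held 2 (12 and 26 counts at 67.5 kb, 11 and 21 at 288 kb) and Lmo2_1 2 (11 and 20 each). Hoxa9_2 (12 and 25), Meis1_2 (13 and 27), Myb (11 and 22), Myc_1, Runx1_1 (20 and 37) and Tcf3 (11 and 20) held 1 each. The Runx1_1 contact, 127 kb long, joins this promoter to the bin of the other captured promoter of Runx1. FPKM was higher in adult cells at 6 of the 8 and at 14 of all 18 promoters of the list with eligible contacts, among them Gata2 with 21.9 in fetal and 57.3 in adult cells. The interferon response list held 4 among 86 eligible contacts (4.65%, close to the background) and 10 of strong fetal excess. FPKM was higher in adult cells at 9 of its 10 promoters with eligible contacts. Ifitm3 (9 and 22), Gbp3 (23 and 41) and Irf9 (19 and 35) held 1 each, and FPKM of each was higher in adult cells. Genes of Notch, Wnt and TGF-beta signalling held 1 among 45 (2.22%), of Smad3 (18 and 35).

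Some bins were shared between promoters. A bin was a strong adult excess contact of 2 promoters in 4 of 305 cases in the first batch and in 17 of 1508 in the second. The like share of all eligible bins is not given here, so these numbers do not show that sharing was rare or common. In the first batch the pairs Fen1 with Fen1_1 and 5033414D02Rik with 5033414D02Rik_2 are promoters of the same gene. At the HoxA cluster, Hoxa9_2 and Hoxa10_1 shared the bin chr6:51124001-51126001 (mm9), over 1 Mb away, with 12 and 9 fetal against 25 and 21 adult counts. Hoxa3_1 and Hoxa7 shared chr6:51960001-51962001, beside the captured promoter of Skap2, with 16 and 10 against 32 and 22. Hoxa10 reached the bin of the Skap2 promoter (7 and 24), and Skap2, captured in its own right, reached the bin of the Hoxa10 promoter (11 and 31). Ligation products between 2 captured promoters can be caught from either end, so such counts are not independent. Of 30 eligible contacts of promoters between 52 and 53 Mb of chromosome 6, 7 (23.3%), at 5 Hox promoters, had strong adult excess. The share over all eligible contacts of the batch was 5.41%, and the window was picked for its number of such contacts. FPKM was higher in adult cells at all 5 (background 50.2%), for example 19.9 and 26.0 at Hoxa9_2. Hoxa3_1, Hoxa7 and Hoxa9_2 are not marked as differentially expressed, whereas Hoxa10_1 is. Dnajb4_1, a cochaperone gene, and its neighbour Fubp1 shared 3 bins in the second batch, with 17, 49 and 31 against 34, 90 and 60 counts from the first and 11, 11 and 10 against 28, 28 and 24 from the second. FPKM was 2.08 in fetal and 4.94 in adult cells for Dnajb4_1 and 14.5 and 9.42 for Fubp1.

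Fragments captured in both batches allowed the excess to be read a second time in libraries that did not choose it. Of 19 such fragments, 8 held 20 strong adult excess contacts in one batch, and 12 of these contacts were listed in the other batch too. There the log2 ratio was below 0 for 9 of 12, at -0.8 or less for 3 and at 0.8 or more for none, with a median of -0.53. Contacts chosen between the limits had a ratio below 0 in the other batch in 63 of 147 cases and a median of 0.10, and those of strong fetal excess in 4 of 22 cases and a median of 0.39. The values of the strong adult excess contacts shrank towards 0 but kept their side more often than not. Of the 12 contacts, 5 belong to the fragment chr3:75360701-75361673 (mm9), named Serpini1, a neuronal serine protease inhibitor, in the second batch and Pdcd10 in the first. There 29 and 57 counts became 11 and 11, 15 and 45 became 10 and 17, 22 and 43 became 8 and 20, 14 and 38 became 6 and 12, and 11 and 23 became 4 and 10. The 3 of the 12 contacts that were again at -0.8 or less all belong to this fragment. Without this fragment, 5 of 7 were below 0, with a median of -0.38. The fragment of Ercc8 and Ndufaf2 kept its direction in all 3 contacts (34 and 62 became 19 and 23), and that of Rnmtl1 and Glod4 in 1 of 2. The contact of 5033414D02Rik on chromosome 19 (15 and 28) had 30 and 51 counts from the same fragment, named Cd274, in the second batch. That of Gfm2 (24 and 44) had 15 and 13 for Nsa2. With fragments within 5 kb of each other matched as well, 14 of 19 were below 0 (median -0.41). At the platelet chemokine neighbours Ppbp and Pf4, 20 and 63 counts stood against 14 and 18, whereas 32 and 67 stood against 21 and 20, above 0.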

How the data were processed

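Capture-C contacts of fetal liver and adult bone marrow HSCs were taken from the deposited table, which gives per promoter, distal bin of 2 kb and batch a count per population, pooled over the 2 libraries. The authors deposited whole-number counts, and whether they sum or average libraries, and how duplicate reads were treated, is not given in the sources used here. Per the submitters' processing notes, Trim Galore 0.41 and Bowtie2 2.2.2 were used, and the build is mm9. The score of the authors' caller, deposited for either population and 0 where a contact was not called, was used here as called or not. The authors deposited FPKM values per promoter and marks of 0 or 1 per bin from other assays, whose processing is not given in the sources used here.

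The contacts, gene lists and comparisons were chosen with earlier results of these data known. Distance ran between the middles of fragment and bin. Ratios add 1 to each count or FPKM, so changes at low FPKM are understated. Intervals of shares are exact (Clopper-Pearson, 95%) and hold counting error alone. With values pooled per population there is no test and no p-value. Named genes were, per batch, the 10 promoters with the most strong adult excess contacts, the 10 with the lowest ratio and the 5 with the most counts, the 5 longest runs, contacts next to the limit, list members and fragments in both batches. Python 3.11.15, pandas 2.3.3, NumPy 2.4.6 and SciPy 1.17.1 were used, and the scripts were tested on simulated data. Alternatives comprised other limits, distances, count minimums, scalings and gaps, and 1 contact per promoter. RefSeq windows (GRCm38.p6) served for sequence and strand only, and distal bins are given by position, since no mm9 sequence was used here. Some genes that this rule selects are not reported here.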

Additional observations from a re-analysis of the deposited data

How the results depend on the processing

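No paired analysis was possible because the values are pooled per population and batch; for the same reason no library could be left out. Over 16 results and 13 settings, 63 of 100 alternatives stayed within the stated intervals or within 1.5 times the count, 33 moved and 4 changed direction. The number of contacts moved to 152 and 870 (first and second batch) at a limit of -1, to 44 and 352 at 50 counts, to 107 and 576 over 150 kb, and to 698 and 2464 after scaling to equal totals; centring on the median, added after seeing the data, gave 3216 in the second batch. The share in runs moved to 0% (50 counts), 4.67% (150 kb), 9.31% (scaled), 5.78% (centred) and 5.50% (1 gap) in the first batch, and to 4.83% (limit -1), 11.3% (scaled), 14.8% (centred) and 12.3% (1 gap) in the second. The share at the 10 leading promoters moved to 29.5% and 11.1% at 50 counts and to 26.2% and 9.72% over 150 kb. The median distance moved to 216 and 214 kb over 150 kb, as that setting dictates, and in the second batch to 108 kb at 50 counts and 118 kb when centred. Adult minus fetal marks changed direction for open chromatin in the first batch at 50 counts (-2.27 points) and in the second with 1 contact per promoter (-0.495), and for the active enhancer mark in the first batch over 150 kb (1.87); they moved to -4.54 (enhancer, first batch, 50 counts) and 2.64 points (open chromatin, second batch, limit -1). The share of promoters with higher adult FPKM moved to 68.3% and 58.8% at 50 counts and to 77.4% and 62.7% where FPKM differed by a log2 of 1 or more; with 3 or more contacts it was 58.3% in the second batch and changed direction to 33.3% in the first. Apart from settings that only reduce the contacts, the cause was not tested. A depth of 30 to 40 counts, where most of these contacts lie, limits all results on single bins.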

Other observations

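Positions along the genome were also set against each other across batches. In 54 windows of 1 Mb with at least 20 eligible contacts in each batch, the share of strong adult excess contacts correlated weakly between the batches (Pearson's r 0.157, Spearman's rho 0.163; a description over windows, which share gene density and depth). In the second batch the windows with the most, after that of Mgat5, were 69 to 70 Mb of chromosome 11 (13 of 97 eligible contacts, at Atp1b2, Chrnb1, Eif4a1, Fgf11 and Tnfsf13) and 29 to 30 Mb of chromosome 7 (13 of 160, at Eid2b, Mrps12, Pak4 and Plekhg2). In the first batch these windows held 4 of 53 (7.55%) and 4 of 48 (8.33%), and other windows of that batch also held 4. The shares over all eligible contacts were 5.41% in the first batch and 5.77% in the second. Windows were ranked by number, not by share. The neighbours Parp9, Dtx3l and Parp14, which act in the interferon response, held 9 of 54 between 35 and 36 Mb of chromosome 16. This window is named for its genes after its values were seen, and other windows held more. Parp9 and Dtx3l share a strong adult excess bin, so their contacts are not independent. The interferon response list as a whole held 4 among 86 (4.65%), close to the background.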
